A study of Mus musculus with 6 samples.

Results

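Molecular chaperones were examined in tumor-associated macrophages (TAMs) as 10 genes: Hspa1a, Hspa1b, Hsp90aa1, Hsph1 and Dnajb1, which heat and other protein-damaging stress induce, and Hspa8, Hsp90ab1, Hspa5, Hspd1 and Hspe1, which cells express constitutively. The list was drawn up with earlier results of these data known. Members were matched by symbol, and all 10 were found among the 39179 rows of the count table. All 10 also passed the filter on low counts, which left 8793 genes for testing. The libraries compare TAMs of 3 Ptgs-competent and 3 Ptgs-deficient tumor samples, and the question was whether chaperone transcripts differ with the capacity of the tumor cells to make prostaglandins. Both groups were grown under the skin from melanoma cells with mutant BRAF, a line derived from a C57BL/6 mouse model with a tyrosinase promoter-driven inducible Cre and no p16 tumor suppressor, in C57BL/6 hosts of 8 weeks of age. In the Ptgs-deficient group, Ptgs1 and Ptgs2, which encode COX-1 and COX-2, had been disrupted by CRISPR/Cas9 in the melanoma cells, and in the Ptgs-competent group both genes were intact. The macrophages carried the host genotype in both groups. Each sample pooled several tumors, which were digested with collagenase and DNase before live cells that were positive for CD45, CD11b and F4/80, negative for NK1.1 and Ly6G, and low or negative for Ly6C were sorted.

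Chaperones of the HSP70 family bind unfolded stretches of other proteins in cycles of ATP hydrolysis. J-domain proteins such as DNAJB1 deliver substrates to HSP70 and trigger the hydrolysis, and HSPH1 (HSP110) is a nucleotide exchange factor that lets HSP70 release them. HSP90 acts later, on partly folded kinases, receptors and other clients. Heat and proteotoxic stress free heat shock factor 1 (HSF1) from repression, and HSF1 trimers bind heat shock elements, which are inverted repeats of the unit GAA, in the promoters of the inducible genes. In macrophages, HSP70 and HSP90 are studied for their part in cytokine production and in antigen processing.

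The inducible HSP70 genes are nearly identical, and their upstream sequences are shown because they share a motif built of 2 heat shock units. Hspa1a (ENSMUSG00000091971; GRCm38 chromosome 17, 34969190 to 34972156, minus strand) and Hspa1b (ENSMUSG00000090877; chromosome 17, 34956436 to 34959238, minus strand) are separated by 9951 bases. The 250 bases before the annotated start differed at 3 positions, an identity of 98.8%. They are printed 5′ to 3′ on the minus strand from RefSeq (GRCm38.p6), with the motif GAANNTTC in capitals:
Hspa1a, chr17:34972157-34972406: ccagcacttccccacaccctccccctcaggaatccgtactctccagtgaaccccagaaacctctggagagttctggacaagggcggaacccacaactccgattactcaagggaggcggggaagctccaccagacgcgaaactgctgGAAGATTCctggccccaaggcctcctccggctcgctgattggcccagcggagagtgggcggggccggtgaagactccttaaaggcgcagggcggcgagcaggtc
Hspa1b, chr17:34959239-34959488: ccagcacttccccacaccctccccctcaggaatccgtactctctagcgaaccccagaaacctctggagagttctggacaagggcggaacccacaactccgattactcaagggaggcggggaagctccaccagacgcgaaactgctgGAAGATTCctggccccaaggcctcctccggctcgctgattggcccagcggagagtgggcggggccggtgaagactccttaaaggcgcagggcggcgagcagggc
The capitals fall 104 to 97 bases before the start in both genes. The RefSeq promoter table held 7 of the 10 genes, and Hsp90aa1, Hsp90ab1 and Hspa8 were not matched. On either strand, GAANNTTC occurred in the windows of Hspa1a, Hspa1b and Hspe1, and in 6.69% of all 32851 windows of that length. The opposite arrangement, TTCNNGAA, which can overlap it, occurred in Hsph1 and Hspe1 and in 7.17% of all windows. The longer motif GAANNTTCNNGAA was found in Hspe1 and in 0.466% of all windows. Hspa5 held the endoplasmic reticulum stress element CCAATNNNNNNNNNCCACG, present in 0.113% of all windows. The cyclic AMP response element TGACGTCA, the site of the factor CREB that prostaglandin E2 receptors can activate, was in none of the 7 windows and in 1.55% of all windows. The letters CCAAT occurred in Hspa1a, Hspa1b, Hsph1, Dnajb1 and Hspa5 and in 33.8% of all windows, and TATAAA in none of the 7 and in 12.4% of all windows. Matched stretches of the other genes, in capitals and 5′ to 3′ on the gene's strand, are set out here for comparison with the pair above:
Hsph1, chr5:149636362-149636369, minus strand: TTCTCGAA
Hspe1, chr1:55088059-55088076, plus strand: TTCTAGAACCTTCCGGAA
Hspa5, chr2:34772025-34772043, plus strand: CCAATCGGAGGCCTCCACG
The RefSeq start of Hspa5 lies 120 bases, and that of Hsph1 40 bases, downstream of the GENCODE start used for gene positions here, so these 2 matches fall before the RefSeq start and inside the GENCODE gene. Each match is a description of the letters in a window and does not show that a factor binds there.

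Whether reads of such similar genes can be told apart bears on every value that follows. The counts come from the 3′ end of transcripts, do not scale with transcript length and cannot be placed in an exon. The coding sequences of Hspa1a and Hspa1b differed at 11 of 1929 aligned positions (identity 99.43%), but their 3′ UTRs matched at 43.86% of positions. Within the last 500 bases of the transcript, 0 of 451 windows of 50 bases were found in any other annotated gene for Hspa1a, Hspa1b, Hsp90aa1, Hsph1, Dnajb1, Hspa5 and Hspd1. The share was 81.82% for Hspa8, with matches in 11 other genes, 53.22% for Hspe1, with matches in 6, and 7.761% for Hsp90ab1, with a match in 1. Because the handling of reads with several alignments is not given in the sources used here, the levels of Hspa8 and Hspe1 are uncertain, and that of Hsp90ab1 less so. Gm20481 is annotated antisense to Hspa1a except over its first 20 and last 722 bases and had 0 counts in all libraries. Hspd1 and Hspe1 overlap head to head by 112 bases, away from their 3′ ends.

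The libraries held 4431184 to 8760679 counts, and the 10 chaperone genes together took 0.692%, 0.759% and 1.03% of them in Ptgs-competent and 0.573%, 0.581% and 0.481% in Ptgs-deficient tumors. This total did not overlap between groups, but the summed CPM of the 9 genes other than Hsp90ab1 did overlap, at 2932, 3022 and 3639 CPM against 2962, 3569 and 2786 CPM. One library stood apart. Ptgs-competent replicate 3 had the fewest counts, the highest mitochondrial share (6.79%, against 1.72% to 4.11% in the others) and correlations of log2 levels with the rest of 0.462 to 0.552 across genes, where the other libraries had 0.522 to 0.772 among themselves. It also had the lowest summed level of 11 macrophage markers, at 6433 TMM-scaled CPM against 16610 to 25330 in the others. TMM-scaled CPM are counts divided by the scaled library total. A list of 15 genes taken as melanoma markers had its highest sum there (1855 CPM). Of that list, 7 genes were at 0 in every library, and the sum came mostly from Cald1 and Sparc, which are not specific to melanocytes. A single gene, Gm26924, took 10.4%, 11.6% and 6.83% of all counts in Ptgs-competent and 4.63%, 3.31% and 1.82% in Ptgs-deficient tumors, without overlap, and its part in the differences of the chaperone genes was not tested. Macrophage markers such as Csf1r, Cd68, C1qa and Lyz2 were present in every library. No difference in composition between libraries can be told apart from a difference per cell in such bulk samples.

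**Figure D1:**
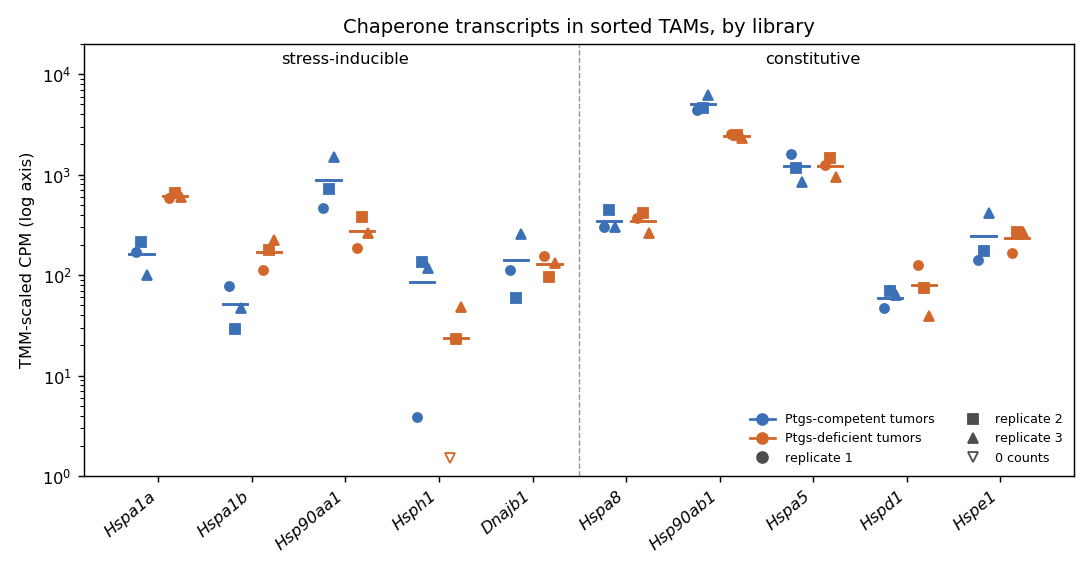
TMM-scaled CPM on a log axis for each chaperone gene, with 1 point per library (shape marks the replicate number, which is not known to pair samples), a bar at the mean of 3 libraries, and an open triangle for 0 counts. Hspa1a and Hspa1b lie higher, and Hsp90aa1 and Hsp90ab1 lower, in every Ptgs-deficient library, while the other 6 genes overlap between groups.

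The inducible HSP70 genes were higher in every Ptgs-deficient library than in any Ptgs-competent one. Listed from replicate 1 to replicate 3, with the Ptgs-competent group first here and below, Hspa1a was at 169, 214 and 101 CPM in TAMs from Ptgs-competent tumors and at 591, 664 and 596 CPM in TAMs from Ptgs-deficient tumors. The lowest Ptgs-deficient library was thus above the highest Ptgs-competent library. The mean was 161 ± 56.8 CPM (SD, n = 3) against 617 ± 40.9 CPM (SD, n = 3), a 3.83-fold difference. In the edgeR quasi-likelihood test the log2 fold change of Ptgs-deficient over Ptgs-competent TAMs (LFC) was 1.94 ± 0.363 (SE; 95% interval 1.13 to 2.75), and the p adjusted over all genes tested (FDR) was 0.0764. Hspa1a ranked the 37th smallest p of the genes tested (unadjusted 0.000322) and missed the FDR of 0.05 at which, given an LFC of at least 1.5 in size, a gene was called. It was called by other tools, with an FDR of 0.00472 by the edgeR likelihood ratio test, 5.27e-05 by DESeq2 and 0.0043 by limma voom. Over all alternatives, which include leaving out each library, its LFC stayed between 1.74 and 2.20.

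Hspa1b, which encodes nearly the same protein, gave fewer reads than Hspa1a in every library. Ptgs-competent tumors gave 77.6, 29.1 and 46.8 CPM, and Ptgs-deficient tumors gave 112, 177 and 222 CPM. The groups did not overlap for this gene either. The mean was 51.1 ± 24.6 and 170.4 ± 55.4 CPM (SD, n = 3 each), for an LFC of 1.74 ± 0.538 (SE; 95% interval 0.54 to 2.93) and an FDR of 0.294. The ratio of Hspa1a to Hspa1b reads was 2.17, 7.35 and 2.15 in Ptgs-competent and 5.28, 3.75 and 2.68 in Ptgs-deficient tumors, so that the groups overlapped in how reads divided between the gene copies. Summing both genes removes any misassignment between them. Their sum was 246, 243 and 147 CPM against 703, 841 and 818 CPM, with a 3.71-fold difference of means. Fitted as 1 gene, the sum had an LFC of 1.89 and an FDR of 0.0667. Hspa1l, the remaining HSP70 gene of this locus, was not counted in any library, where a count of 0 allows up to 3 counts, or 0.357 to 0.647 CPM. These limits cover counting error only.

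The cytosolic HSP90 genes went the other way. Hsp90aa1 (ENSMUSG00000021270; chromosome 12, 110690605 to 110702728) encodes the stress-inducible isoform. Ptgs-competent tumors gave 463, 728 and 1486 CPM of Hsp90aa1, and Ptgs-deficient tumors gave 185, 380 and 263 CPM. Every Ptgs-deficient library was below every Ptgs-competent one, and the highest value was that of Ptgs-competent replicate 3. The mean was 892 ± 531 and 276 ± 97.9 CPM (SD, n = 3 each), for an LFC of -1.69 ± 0.469 (SE; 95% interval -2.74 to -0.65) with an FDR of 0.235. Without Ptgs-competent replicate 3 the LFC was -1.05, with an FDR of 0.422. DESeq2 called the gene at an FDR of 0.0117.

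Hsp90ab1 (ENSMUSG00000023944; chromosome 17, 45567775 to 45573271), the constitutive HSP90 isoform, gave more reads than any other gene of the group in each library. Its level was 4364, 4611 and 6189 CPM in Ptgs-competent and 2530, 2487 and 2299 CPM in Ptgs-deficient tumors. The Ptgs-deficient libraries lay close together, and all were below the Ptgs-competent range. The mean was 5055 ± 990 against 2439 ± 123 CPM (SD, n = 3 each), 2.07-fold lower. Its LFC was -1.05 ± 0.297 (SE; 95% interval -1.71 to -0.39), with an FDR of 0.243, and was -0.83 without Ptgs-competent replicate 3. The FDR was 0.119 by the likelihood ratio test, 0.000199 by DESeq2, 0.0126 by limma voom and 0.00505 by voom with sample quality weights. In size the LFC is below the 1.5 needed for a call at any p. Of the related genes, Hsp90b1, which encodes the HSP90 of the endoplasmic reticulum, was at 481 ± 107 against 603 ± 123 CPM (SD, n = 3 each), and Trap1, which encodes the mitochondrial HSP90, at 26.2 ± 18.0 against 25.0 ± 16.6 CPM. Both overlapped between groups.

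Set against the background of all genes tested, 0 of the 10 chaperone genes were called by the edgeR quasi-likelihood test, which called 0.216% of genes. At an unadjusted p under 0.05, Hspa1a and Hspa1b were higher, where 5.00% of genes were, and Hsp90aa1 and Hsp90ab1 were lower, where 3.82% of genes were. The same 4 genes did not overlap between groups. Non-overlap with higher values in the Ptgs-deficient libraries was found for 11% of all genes, and with lower values for 8.01%. The edgeR likelihood ratio test, which called 2.74% of genes, limma voom (1.09%) and voom with sample quality weights (1.40%) each called Hspa1a. DESeq2 (3.73%) and the quasi-likelihood test with no low-count filter (1.89% of 13368 genes) each called Hspa1a and Hsp90aa1.

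**Figure D2:**
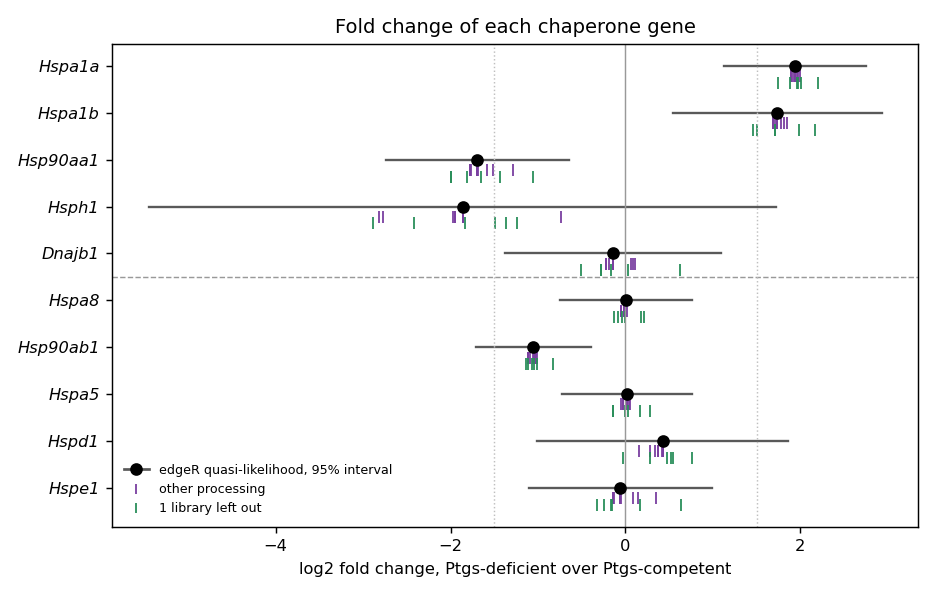
LFC of each chaperone gene (point) with its 95% interval from the edgeR quasi-likelihood test, and the values under other processing (purple ticks) and with 1 library left out (green ticks). Dotted lines mark 1.5 in either direction, and the dashed line separates stress-inducible genes (top) from constitutive genes. The intervals of Hspa1a, Hspa1b, Hsp90aa1 and Hsp90ab1 do not reach 0, and no tick of these genes crosses it.

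The co-chaperones of HSP70 among the inducible genes overlapped between the groups. Hsph1 (ENSMUSG00000029657; chromosome 5, 149614287 to 149636376) gave 3.83, 135 and 119 CPM in Ptgs-competent and 0, 22.9 and 48.0 CPM in Ptgs-deficient tumors. Replicate 1 was by far the lowest of each group, with 24 counts and 0 counts, and the groups overlapped. The LFC was -1.86 ± 1.61 (SE; 95% interval -5.45 to 1.73), with an FDR of 0.9995, and ranged from -2.89 without Ptgs-deficient replicate 3 to -1.24 without Ptgs-deficient replicate 1. Dnajb1 (ENSMUSG00000005483; chromosome 8, 83608193 to 83612653) was at 112, 58.8 and 255 CPM against 156, 96.6 and 132 CPM. All 3 Ptgs-deficient libraries lay inside the Ptgs-competent range. Its LFC was -0.14 ± 0.555 (SE; 95% interval -1.38 to 1.09), and without Ptgs-competent replicate 3 it was 0.63.

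Of the constitutive chaperones other than Hsp90ab1, none had an unadjusted p under 0.05. Hspa8 (ENSMUSG00000015656; chromosome 9, 40800984 to 40810087), which encodes the constitutive cytosolic HSP70, was at 301, 444 and 299 CPM against 371, 412 and 264 CPM. The group means were 348 ± 82.7 and 349 ± 76.5 CPM (SD, n = 3 each), and the LFC was 0.0027 ± 0.338 (SE; 95% interval -0.75 to 0.76). Hspa5 (ENSMUSG00000026864; chromosome 2, 34771970 to 34777547) encodes BiP, the HSP70 of the endoplasmic reticulum and a target of the unfolded protein response. It was at 1618, 1171 and 850 CPM against 1253, 1472 and 954 CPM, with an LFC of 0.016 ± 0.333 (SE; 95% interval -0.73 to 0.76). The intervals of these 2 genes exclude a difference of the size called here, in either direction.

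Hspd1 and Hspe1 encode HSP60 and HSP10, the chamber and the lid of the mitochondrial chaperonin, and are transcribed in opposite directions from adjoining starts. Hspd1 (ENSMUSG00000025980; chromosome 1, 55077835 to 55088243) was at 46.7, 69.3 and 63.2 CPM against 126, 74.8 and 39.3 CPM. The highest and the lowest of these 6 values were both in the Ptgs-deficient group. Its LFC was 0.43 ± 0.644 (SE; 95% interval -1.01 to 1.86). Hspe1 (ENSMUSG00000073676; chromosome 1, 55088132 to 55091307) was at 141, 174 and 420 CPM against 167, 270 and 269 CPM, with an LFC of -0.06 ± 0.469 (SE; 95% interval -1.10 to 0.99). Its highest value was again that of Ptgs-competent replicate 3, without which the LFC was 0.63. The ratio of Hspe1 to Hspd1 reads ranged from 2.51 to 6.65 in Ptgs-competent and from 1.32 to 6.84 in Ptgs-deficient tumors. The pair did not keep a fixed ratio of reads in either group.

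With all 10 genes counted, the difference between the inducible and constitutive classes overlapped between the groups. The mean log2(CPM + 1) of the 5 inducible genes minus that of the 5 constitutive genes was -2.41, -1.92 and -1.52 in Ptgs-competent and -2.73, -1.64 and -0.96 in Ptgs-deficient tumors. The highest and the lowest value both belonged to the Ptgs-deficient group. Replicate 1 was the lowest of each group, and there Hsph1 had 24 counts (Ptgs-competent) and 0 counts (Ptgs-deficient). These near-zero values lower the inducible mean of both libraries. No alternative left Hsph1 out of its class, so whether the classes separate the groups without it was not tested. The group means were -1.95 ± 0.447 and -1.78 ± 0.895 (SD, n = 3 each), a difference of 0.17 that is smaller than either SD. The inducible class held genes with differences of both signs, with 2 higher and 3 lower and a median LFC of -0.14. The constitutive class had 3 higher and 2 lower and a median of 0.0027, beside a median of 0.018 over all genes tested.

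Ratios within a library do not depend on how libraries are scaled. Reads of Hspa1a and Hspa1b together, over reads of Hspa8, came to 0.817, 0.547 and 0.492 in Ptgs-competent and to 1.90, 2.04 and 3.10 in Ptgs-deficient tumors. The inducible HSP70 genes thus gave fewer reads than Hspa8 in every Ptgs-competent library and more in every Ptgs-deficient library, a 3.79-fold difference of the geometric means. Since 81.82% of the Hspa8 windows occur in other genes, reads of Hspa8 may have been lost. Where the ratio lies relative to 1 is therefore uncertain. Over Hsp90aa1 the same sum gave ratios of 0.531, 0.333 and 0.0992 against 3.79, 2.22 and 3.12. This 11.4-fold difference joins higher and lower genes, all inducible, and was 7.06-fold without Ptgs-competent replicate 3. By contrast, the ratio of Hsp90aa1 to Hsp90ab1 was 0.106, 0.158 and 0.240 against 0.0733, 0.153 and 0.114, and the groups overlapped. With 3 libraries against 3, the smallest p of an exact two-sided permutation test is 0.1, so these ratios are given with no test.

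**Figure D3:**
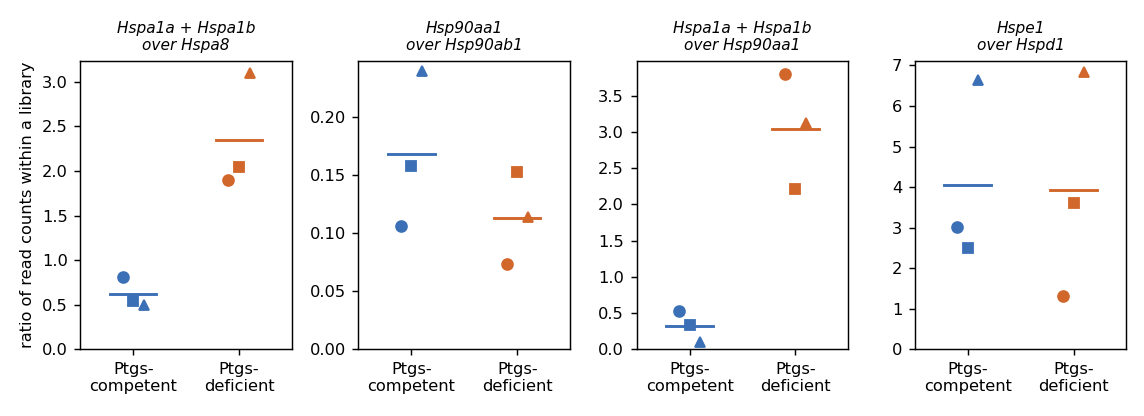
Ratios of read counts within each library (linear axes from 0, 1 point per library, bar at the mean of 3 libraries, shapes as replicate numbers). The ratios of Hspa1a and Hspa1b to Hspa8 and to Hsp90aa1 do not overlap between groups, while those of Hsp90aa1 to Hsp90ab1 and of Hspe1 to Hspd1 do.

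The order of the genes by reads is given for each group. By mean CPM the order in Ptgs-competent tumors was Hsp90ab1, Hspa5, Hsp90aa1, Hspa8, Hspe1, Hspa1a, Dnajb1, Hsph1, Hspd1 and Hspa1b. Among neighbors in this order, Hsp90ab1 and Hspa5 did not overlap in their libraries, nor did Hsp90aa1 and Hspa8, and all other neighbors did. In Ptgs-deficient tumors Hsp90ab1, Hspa5 and Hspa1a led, and none of these 3 overlapped with its neighbors. Hspa8, Hsp90aa1, Hspe1, Hspa1b, Dnajb1, Hspd1 and Hsph1 followed, each overlapping with the next. Since reads depend on how well a 3′ end is captured and aligned, this order is one of reads and not of transcripts per cell.

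Other genes of the heat shock response did not move as 1 group. Of 20 further genes known to depend on HSF1, 17 were tested, with 9 higher and 8 lower in the Ptgs-deficient libraries and a median LFC of 0.26. None was called, where 0.216% of all genes were, and 1 in each direction had an unadjusted p under 0.05. Over all genes tested, 5.00% were higher and 3.82% lower at that p. Ubb, a polyubiquitin gene, was at 357, 365 and 85.8 CPM against 740.3, 570.3 and 584 CPM, without overlap, and its LFC was 1.23 ± 0.497 (SE; FDR 0.460). Cryab, which encodes a small heat shock protein, was at 15.9, 26.3 and 318 CPM against 25.9, 4.29 and 15.5 CPM. Its LFC of -2.98 ± 1.20 (SE) rested on Ptgs-competent replicate 3 and was -0.41 without it. Ier5, which promotes HSF1 activity, was at 236 ± 141 against 458 ± 124 CPM, and Dnaja1, a J-domain protein, at 83.7 ± 29.7 against 156 ± 62.8 CPM (SD, n = 3 each), and both overlapped between groups. Of the small heat shock protein genes left untested, Hspb1 was counted in Ptgs-deficient replicates 1 and 2 alone (83 and 58 counts), and Hspb8 had 36 counts in Ptgs-deficient replicate 2 alone.

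Heat shock factors themselves were at low counts. Hsf1 had 0, 247 and 254 counts in Ptgs-competent and 0, 90 and 0 in Ptgs-deficient tumors. Hsf2 had 76, 267 and 194 counts against 0, 87 and 0, and was lower without overlap in CPM. Their FDRs were 0.9995 and 0.960. Hsbp1, which encodes a small protein that binds HSF1 trimers and restrains them, was at 65.8, 53.0 and 5.39 CPM against 166, 239 and 303 CPM. It did not overlap between groups and had an LFC of 2.51 ± 0.764 (SE), with an FDR of 0.292. Hsf4 and Hsf5 had 0 counts in all libraries. Over the 3 tested genes of this list the median LFC was -3.14, the value of Hsf1, whose LFC ranged from -10.4 to -2.41 with 1 library left out.

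Other chaperone lists held genes with differences of both signs. Beside the counts given here, 11% of all genes tested were higher and 8.01% lower without overlap. At an unadjusted p under 0.05, 5.00% were higher and 3.82% lower. Of 16 tested HSP70 and HSP90 co-chaperone genes, 8 were higher and 8 lower, with a median LFC of -0.06. Dnajc7, which binds both HSP70 and HSP90, and Dnajc2, a J-domain protein of the ribosome, were the 2 with an unadjusted p under 0.05, at LFCs of -1.32 ± 0.517 and -1.56 ± 0.697 (SE). Dnajc7 overlapped between groups, and its LFC was -0.53 without Ptgs-competent replicate 2. Bag1, a nucleotide exchange factor, and Ppid, an HSP90-binding cyclophilin, had LFCs of 0.96 ± 0.719 and -2.10 ± 1.68 (SE). Of 25 genes of endoplasmic reticulum folding and the unfolded protein response, 15 were higher and 10 lower, with a median of 0.06. In that list Ppib, a cyclophilin, was at 96.5 ± 47.4 against 217 ± 77.3 CPM, and Xbp1, a transcription factor of the response, at 55.1 ± 36.2 against 134 ± 34.6 CPM (SD, n = 3 each). Xbp1 and Herpud1, a gene of endoplasmic reticulum protein degradation, were higher without overlap. Calr and P4hb, a lectin chaperone and a disulfide isomerase, were at 802 ± 46.1 against 528 ± 78.1 CPM and at 612 ± 89.1 against 435 ± 76.7 CPM (SD, n = 3 each), each lower without overlap.

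Mitochondrial chaperones and proteases (15 tested) had 7 higher and 8 lower, with a median of -0.07. Hspa9, the mitochondrial HSP70, was at 298 ± 177 against 168 ± 85.8 CPM (SD, n = 3 each) and overlapped between groups. Its LFC was -0.82 and, without Ptgs-competent replicate 3, -0.17. The protease subunit Afg3l2 and the disaggregase Clpb were higher in Ptgs-deficient libraries without overlap, at 24.9 ± 23.4 against 70.4 ± 22.8 CPM and 12.1 ± 4.10 against 31.2 ± 7.95 CPM (SD, n = 3 each). The nucleotide exchange factor Grpel1 overlapped, at 60.7 ± 30.8 against 93.6 ± 14.9 CPM (SD, n = 3 each). Of 14 genes of the cytosolic chaperonin and prefoldin, which fold actin and tubulin, 6 were higher and 8 lower, with a median of -0.18. Counted apart after the values were seen, 7 of the 8 chaperonin subunits were lower and 5 of the 6 prefoldin subunits higher, and the lower genes without overlap were Cct3 and Pfdn1. The chaperonin subunits Cct3, Cct8 and Cct7 had LFCs of -0.75 ± 0.389, -0.72 ± 0.389 and -0.48 ± 0.336 (SE), and the prefoldin subunit Pfdn4 had 18, 3 and 0 counts against 8, 453 and 94. No gene of these 6 pathway lists was called by the edgeR quasi-likelihood test after the low-count filter, nor by the likelihood ratio test. These tests called 0.216% and 2.74% of all genes. Of those named here, DESeq2 called Hsbp1 (FDR 0.0484), and the quasi-likelihood test with no low-count filter called Hsbp1 (FDR 0.00337) and Cryab (FDR 0.0378).

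**Figure D4:**
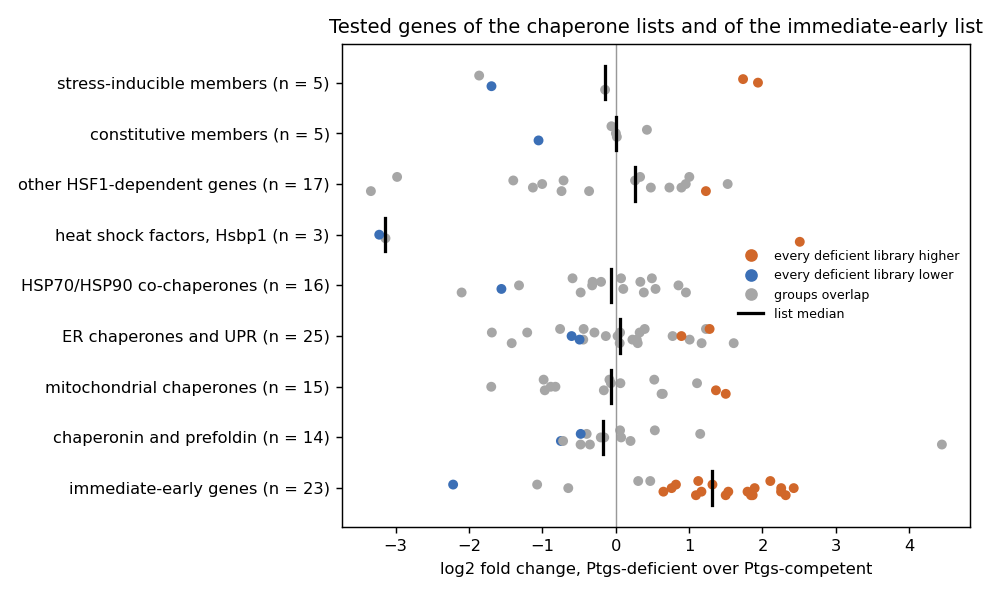
LFC of each tested gene of the chaperone lists and of the immediate-early list, 1 point per gene, colored by whether every Ptgs-deficient library was higher or lower than every Ptgs-competent library, with a black bar at the list median. The chaperone lists spread to both sides of 0, whereas 20 of 23 immediate-early genes lie to the right.

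Immediate-early genes are induced within minutes by growth factors and stress, and together with Hspa1a and Hspa1b many of them are known to be induced in cells during enzymatic dissociation of tissue. Of 23 tested genes of this list, 20 were higher, 17 of them with an unadjusted p under 0.05, where 5.00% of all genes were. The median LFC was 1.32. None was called by the quasi-likelihood test on all 6 libraries with the low-count filter and no block. The likelihood ratio test, which called 2.74% of all genes, called 8. The 4 with the smallest p encode transcription factors, and each was also called with no low-count filter and with a replicate block. Egr1 was called without Ptgs-competent replicate 3 as well (FDR 0.0469). Klf2 was at 107 ± 42.0 against 509.8 ± 28.6 CPM, Egr1 at 231 ± 62.3 against 995 ± 331 CPM, Fosb at 124 ± 55.7 against 593 ± 125 CPM and Klf4 at 244 ± 77.3 against 907 ± 191 CPM (SD, n = 3 each). Summed over the list, the level was 12596, 10192 and 7915 CPM in Ptgs-competent and 18938, 19931 and 19074 CPM in Ptgs-deficient tumors. The sum moved with the level of Hspa1a and Hspa1b across the groups, and its part in that difference was not tested.

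Markers of some other cells also lay apart between the groups. A list of 15 genes taken as melanoma markers summed to 445, 1054 and 1855 CPM in Ptgs-competent and to 119, 78.6 and 99.1 CPM in Ptgs-deficient tumors. The 6 tested genes that were lower at an unadjusted p under 0.05 were Sparc, Cald1, Fermt2, Cav1, Sdpr and Prkg2, which are not specific to melanocytes. The seventh, the melanocyte transcription factor gene Mitf, which macrophages also express, went the other way without overlap, at 1.91, 0 and 0.647 CPM against 10.6, 44.3 and 18.2 CPM, with an LFC of 4.80 ± 2.43 (SE; FDR 0.703). The pigment and lineage markers Mlana, Pmel, Dct, Tyr, Tyrp1, Sox10 and S100b, 7 of the 15, were at 0 in every library, and the level in the Ptgs-competent libraries came mostly from Cald1 and Sparc, which fibroblasts also express. The fibroblast and endothelial markers (10 genes, Lum and Cdh5 at 0) summed to 259.8 to 442 CPM against 55.5 to 85.2 CPM. Among Ptgs-competent libraries, Hsp90aa1 and Hsp90ab1 were lowest in replicate 1 and highest in replicate 3, the same order as the summed melanoma list. Among Ptgs-deficient libraries neither gene followed the order of that list. Hsp90aa1 ran in reverse, at 185, 380 and 263 CPM, and Hsp90ab1 was at 2530, 2487 and 2299 CPM. The part of other cells in the lower HSP90 levels was not tested. The macrophage markers summed to 6433 to 17903 CPM in Ptgs-competent and to 21139 to 25330 CPM in Ptgs-deficient tumors, without overlap, and 9 of 11 were higher. Without Ptgs-competent replicate 3 the LFCs of Hspa1a and Hspa1b were 1.74 and 1.71. The macrophage sums of Ptgs-competent replicates 1 and 2, 16610 and 17903 CPM, still lay below every Ptgs-deficient library. The part of this marker difference in the levels of Hspa1a and Hspa1b was not tested. Neutrophil markers (10 genes, Ly6g at 0) summed to 621 to 724 CPM against 452 to 532 CPM, with S100a8 and S100a9 lower without overlap. Retnlg went the other way, at 20.2, 59.9 and 16.2 CPM against 123, 114 and 180.2 CPM, without overlap (LFC 2.11 ± 0.656 SE; FDR 0.298). NK and T cell markers (12 genes, 8 at 0, among them Ncr1, Cd3e and Trac) summed to at most 1.12 CPM against 12.7 to 26.3 CPM. That sum came mostly from Klrk1, at 26.3, 4.29 and 16.1 CPM for Ptgs-deficient tumors and not counted for Ptgs-competent tumors, and from Cd3d at 7.38 CPM in Ptgs-deficient replicate 2, while Nkg7 and Klrb1c overlapped between groups. B cell markers (5 genes, 4 at 0) and dendritic cell markers (6 genes, 3 at 0) summed to at most 26.8 and 26.5 CPM in any library.

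**Figure D5:**
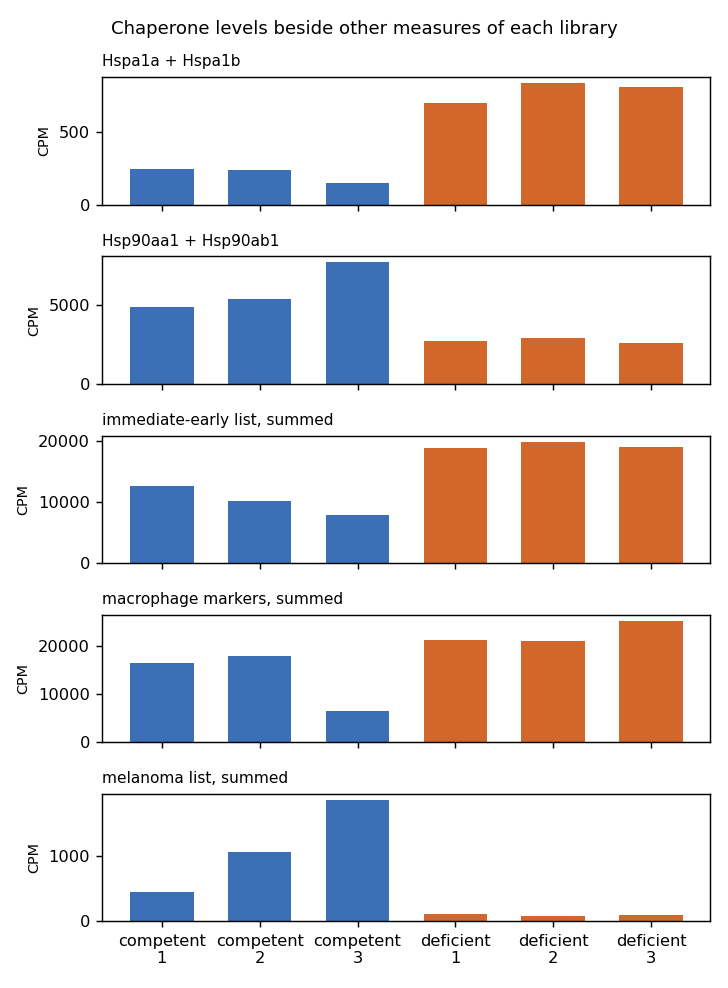
Levels per library in CPM (bars, linear axes from 0) of the summed inducible HSP70 genes, the summed cytosolic HSP90 genes, the immediate-early list, 11 macrophage markers and the melanoma list of 15 genes. The sums of inducible HSP70, immediate-early genes and macrophage markers are higher, and those of HSP90 and of the melanoma list, which comes mostly from Cald1 and Sparc in the Ptgs-competent libraries, lower, in each Ptgs-deficient library (orange) than in any Ptgs-competent library (blue).

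Across the 6 libraries, the genes outside the chaperone group whose log2(CPM + 1) followed that of summed Hspa1a and Hspa1b most closely were Cmtm3, Crip1, Zbp1, H2-K1 and Hist1h2bc, with a Pearson correlation of 0.995, 0.990, 0.990, 0.985 and 0.985. Each was higher in every Ptgs-deficient library, and 349 genes had a correlation above 0.9. The libraries share the group difference, so a correlation over 6 of them is a description. Cmtm3, for example, was at 48.0, 34.6 and 20.9 CPM against 260.4, 313 and 319 CPM.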

How the data were processed

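RNA of TAMs sorted from 3 Ptgs-competent and 3 Ptgs-deficient tumor samples (800 pg per library) was sequenced from the 3′ end with QuantSeq FWD, with no molecular identifiers stated. The authors trimmed reads with BBDUK, fqtrim and cutadapt, aligned them to GRCm38 with STAR, counted them per Ensembl gene with featureCounts, and deposited the raw counts. How strand and multiply aligned reads were treated, and the versions of these tools, are not given in the sources used here. All rows were genes and all columns belonged to the 6 libraries, which hold 4431184 to 8760679 counts each.

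Counts were filtered with filterByExpr (minimum count 10, total 15), TMM-scaled and compared in R 4.3.3 with the edgeR 4.0.16 quasi-likelihood test, two-sided, with Benjamini-Hochberg adjustment (FDR) over 8793 genes. Calls needed an FDR of at most 0.05 and a log2 fold change (LFC) of at least 1.5 in size, the study's thresholds. The SE was the LFC divided by the root of the F statistic, and levels are TMM-scaled CPM. Class means used log2(CPM + 1). The scripts were tested on simulated data. Samples are pools of tumors, and nothing says that pools of a group came from separate experiments, so p-values measure the spread between these samples.

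The chaperone genes, the gene lists and the tests were chosen with earlier results of these data known. Text names all 10 chaperone genes, up to 4 genes per pathway list with the smallest p, and the 5 other genes most correlated with summed Hspa1a and Hspa1b. Hspb1, Hspb8, Hspa1l, Hsf4, Hsf5, Hsp90b1, Trap1, Gm20481, Gm26924, Herpud1, Pfdn1 and the marker genes are named outside this rule. Of 202 list genes 201 were found, 2 of them by Ensembl identifier, and Hspa14, listed on 2 rows, was left out. Alternatives were the likelihood ratio test, DESeq2 1.42.0, limma 3.58.1 voom with and without sample weights, RLE or library-total scaling, no filter or at least 30 counts in 3 libraries, a replicate block, Hspa1a and Hspa1b summed, other pseudocounts or other class members (without Hsp90aa1 and Hspa5) for the class means, and each library left out. Gene positions and 3′ ends came from GENCODE M21 (GRCm38), upstream sequences from RefSeq (GRCm38.p6), and sequences were aligned with Biopython.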

Additional observations from a re-analysis of the deposited data

How the results depend on the processing

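The number of genes called was 19 and moved to 241 with the edgeR likelihood ratio test, 328 with DESeq2, 96 with limma voom, 123 with voom and sample quality weights, 252 with no low-count filter and 77 with a replicate block. Of the 10 chaperone genes, 0 were called, and 1, 2, 1, 1, 2 and 1 were called in those fits in the same order. Each of these included Hspa1a, and the replicate block gave it an FDR of 0.0235. Deviations from the group means correlated between -0.042 and 0.043 over pairs of libraries across the groups. Same-numbered pairs had -0.042, -0.017 and -0.025. With 3 libraries per group, such correlations cannot show whether the replicate numbers pair the samples, which the labels do not state. With 1 library left out, the calls ranged from 0 when Ptgs-competent replicate 1 was dropped (1231 genes had an unadjusted p under 0.05) to 25 when Ptgs-competent replicate 3 was dropped, and no chaperone gene was called in any of these 6 fits.

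Hspa1a, Hspa1b, Hsp90aa1, Hsp90ab1 and Hsph1 kept their direction in every alternative run. With 1 library left out, the FDR ranged from 0.0709 to 0.334 for Hspa1a and from 0.143 to 0.725 for Hsp90aa1. The 5 other chaperone genes, none with a difference beyond the spread, accounted for all 25 changes of sign among the 159 alternative values of the 10 genes. Under limma voom, Dnajb1 and Hspe1 were at 0.11 and 0.14, and with sample quality weights at 0.069 and 0.35, fits in which the all-gene median was 0.34 and 0.39. Under the replicate block they were at 0.092 and 0.081, with that median at 0.26. Hspa8 and Hspa5 were at -0.050 and -0.023 with DESeq2, at -0.050 and -0.023 with RLE scaling, and at -0.011 and -0.051 with weighted voom. Hspa8 was at -0.020 with library totals only. With 1 library left out, log2 fold changes ranged from -0.51 to 0.63 for Dnajb1, from -0.13 to 0.22 for Hspa8, from -0.14 to 0.28 for Hspa5, from -0.022 to 0.76 for Hspd1 and from -0.33 to 0.63 for Hspe1. Of the 27 other pathway genes refitted under these alternatives, Ppid changed sign, to 0.91 with voom and 0.57 with weighted voom. The class difference ranged from -0.24 to 0.65 with 1 library left out and was -0.28 with Hspa1a and Hspa1b summed and 0.62 without Hsp90aa1 and Hspa5, against 0.17 with all members. The causes of these changes were not tested. For Hsph1, Hsf1, Hsf2, Ppid and Pfdn4, each with 0 counts in at least 1 library, the SE of the log2 fold change was 1.61 to 2.76.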
